A study of Mus musculus with 12 samples.

Results

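The cytosolic ribosomal proteins are described here in mouse liver, as 40 genes of the 12393 that could be named on the array. They were chosen by name alone: a probe set had to carry a single gene symbol made of Rpl, Rps or Rplp followed by a number, with an optional a, x or y. The 40 genes hold 22 proteins of the large subunit and 18 of the small subunit, lie on 15 chromosomes and have 88 probe sets, of which the one with the highest mean over the 12 arrays stood for each gene. Another 27 ribosomal protein genes occurred only on probe sets that the platform annotation gives to several symbols, and these were not named.

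Ribosomal proteins coat the ribosomal RNA of the subunits that together translate mRNA. Their mRNAs are among the most abundant of most cells, are made in near-equal amounts, and carry a run of pyrimidines at the 5′ end (the 5′ TOP), through which the TOR kinase sets their translation. Several of the proteins, Rpl11 among them, also bind the ubiquitin ligase Mdm2 when ribosome assembly is disturbed, which stabilises p53.

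Liver RNA of 12 C57Bl/6J mice aged 6 to 8 weeks was hybridised to 1-colour Affymetrix arrays, with 1 array per animal and 3 animals in each of 4 groups. The groups were wild-type and Aag knock-out mice, each either untreated controls or given 1 intraperitoneal dose of 75 mg/kg methyl methanesulfonate (MMS), an agent that methylates DNA bases, with livers taken 6 hours after it. Aag, also named Mpg, is the glycosylase that starts the repair of many such bases. The labels do not say whether controls received an injection or how the Aag allele was made. Treated animals were set against untreated ones in wild type, in the knock-out and averaged over both, the genotypes were compared in untreated and in treated animals, and the MMS responses of the genotypes were set against each other.

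Values are log2 expression, so a difference of 1 is a 2-fold change, and array medians ran from 7.42 to 7.75. All 15 hepatocyte markers measured were bright, with means of 11.6 to 14.6, and the albumin gene Alb stood at 14.5. One of the 2 Mpg probe sets read 6.21 to 6.94 in wild type and 4.95 to 5.75 in knock-out animals, while the other overlapped between genotypes, and whether either lies in the deleted part is not given. Over all probe sets 9 arrays were closest to an array of their own group. The exceptions were treated knock-out animal 3, closest to untreated wild-type animal 2 (r = 0.989), treated wild-type animal 1, closest to untreated knock-out animal 2 (also r = 0.989), and untreated knock-out animal 3, closest to treated knock-out animal 3 (r = 0.987). Control probe sets for the 5′ and 3′ ends of actin and Gapdh mRNA, whose difference follows RNA length and labelling, set 3 arrays apart: the 5′ minus 3′ log2 signal was -2.00 in treated wild-type animal 2, -1.61 in treated knock-out animal 1 and -1.51 in treated knock-out animal 2, against -2.66 to -2.28 in the other 9.

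The start sites of 10 members are shown to let members whose annotated start lies beside a pyrimidine word, 5 of the 10, be set next to those whose start does not. RefSeq (GRCm38.p6) had a start-site window for 35 of the 40 genes. Each line gives 45 bases 5′ to 3′ on the strand of the gene, 30 before the annotated start and 15 from it on. Capitals mark the word CTTTC, the word CTTTT, the word CTCTT or the word CTTCC where it lies between 10 bases before and 15 bases after the start on that strand. The first group is Rplp0 (chr5:115559437-115559481, plus strand) and Rplp2 (chr7:141447621-141447665, plus strand) of the acidic stalk that recruits elongation factors, Rpl11 (chr4:136053379-136053423, minus strand), Rpl27 (chr11:101442215-101442259, plus strand), Rps3 (chr7:99483695-99483739, minus strand) and Rps10 (chr17:27635230-27635274, minus strand). Rps6 (chr4:86857353-86857397, minus strand) and Rps26 (chr10:128626492-128626536, minus strand) follow, and the last are the members that passed the test somewhere, Rpl12 (chr2:32961682-32961726, plus strand) and Rpl37 (chr15:5116583-5116627, plus strand).
Rplp0: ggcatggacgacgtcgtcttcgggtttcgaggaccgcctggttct
Rplp2: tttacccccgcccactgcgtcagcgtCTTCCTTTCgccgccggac
Rpl11: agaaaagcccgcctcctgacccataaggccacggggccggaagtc
Rpl27: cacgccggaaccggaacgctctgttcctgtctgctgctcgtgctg
Rps3: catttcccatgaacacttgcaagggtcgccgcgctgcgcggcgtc
Rps10: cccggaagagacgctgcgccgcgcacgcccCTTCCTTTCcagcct
Rps6: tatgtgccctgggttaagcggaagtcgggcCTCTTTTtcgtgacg
Rps26: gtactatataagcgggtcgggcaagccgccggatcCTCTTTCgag
Rpl12: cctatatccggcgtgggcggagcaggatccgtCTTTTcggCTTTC
Rpl37: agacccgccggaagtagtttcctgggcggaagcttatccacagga

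At least 1 of the 4 pyrimidine words lay near the start in 16 of the 41 windows of members (39.0%; 5 genes had several starts), against 12.55% of all 32851 windows of the table. Rplp2 and Rps10 share the stretch CTTCCTTTC, which joins CTTCC and CTTTC by an overlap. CTTCCG, the core of the sites bound by ETS factors such as GABP, lay on either strand of the 300-base window in 25 of 41 windows (61.0%), against 16.85% of all. The word CCATCTT, which holds the core of the YY1 site, was found on either strand in 6 of 41 windows (14.6%), against 6.34% of all. Annotated starts can lie some bases from the start in use, and a word that is absent says only that these letters are not in the window.

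The 40 genes were bright in every group except for 6. Means over the 12 arrays ran from 11.04 to 13.82 for the 34 bright members, at or above the 84.9 percentile of all probe sets. The high readings included those of Rpl41, the shortest protein of the large subunit, Rps28 of the small subunit and Rpl13a, which is also known as a translational repressor in interferon-treated cells. The levels lie near the top of the scale and are not ordered between genes, since each probe set has its own response. The other 6 were Rpl37 (mean 4.32), Rpl39 (5.52), Rps27 (5.95), Rpl12 (7.08), Rpl14 (7.91) and Rps25 (9.19). Each of these 6 also had a probe set shared with other symbols whose mean was 13.29 to 13.98, so the probe set that the naming rule picks for them is a dim reading of a gene with a brighter, shared one. The plot of level against range shows that 4 of the 6 also varied most among the arrays.

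**Figure D1:**
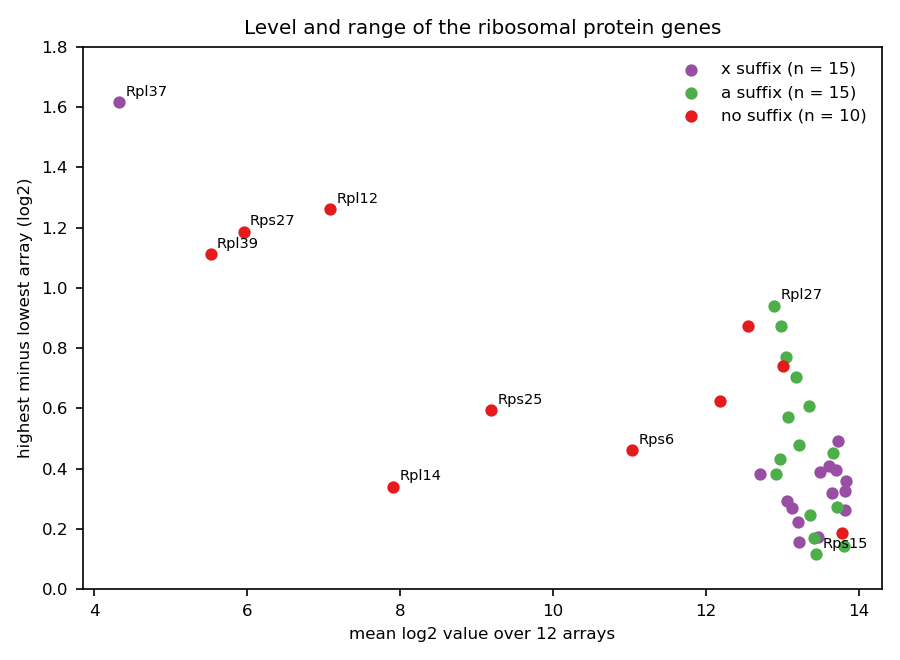
Mean log2 value over the 12 arrays (horizontal axis) and the highest minus the lowest array (vertical axis, log2) for the 40 genes, 1 point per gene, coloured by the suffix of the probe set identifier. The 34 bright members sit between 11.04 and 13.82, and the widest range belongs to Rpl37, at a mean of 4.32.

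The 3 narrowest ranges over the 12 arrays were those of Rps15, Rpl4 and Rps2. Rps15, which is needed for export of the small subunit from the nucleus, stayed between 13.38 and 13.49 over all 12 arrays, a range of 0.12. Rpl4, whose loop lines the exit tunnel of the nascent chain, ranged by 0.14 and Rps2, at the mRNA entry of the small subunit, by 0.15. At the other end stood Rpl37 with a range of 1.62, Rpl12 with 1.26 and Rps27 with 1.19, all dim. Among the 34 bright members the widest range was that of Rpl27, at 0.94.

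In wild-type liver the family moved little 6 hours after MMS. Rpl37 alone passed the test (adjusted p under 0.05 over 22626 probe sets), 1 of 40 genes or fewer than the 6.44% of all probe sets called. The median change of the members was 0.04, against -0.05 over all probe sets. Changes above 0 were 27 of 40, against 43.3% of all probe sets. At an unadjusted p under 0.05 there were 2 members, Rpl37 and Rpl12, against 23.2% of all probe sets, and the same genes were the 2 members whose treated and untreated animals did not overlap, against 31.8% of all. For 39 of the 40 probe sets used, the 95% interval of the fit lay within 1 on the log2 scale on both sides. A 2-fold change was thus outside the interval of each of these readings but that of Rpl37.

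Rpl37, a zinc-binding protein of the large subunit that is among those known to bind Mdm2, read 3.51, 3.89 and 3.68 in untreated wild type and 5.13, 4.72 and 5.01 in treated wild type. Its untreated knock-out animals read 5.07, 4.82 and 3.87 and the treated ones 4.20, 3.91 and 4.04. All 3 treated wild-type animals lay above all 3 untreated ones, while in the knock-out 2 untreated animals were the high ones. It rose by 1.26 ± 0.26 (SE, n = 3 per group, adjusted p = 0.0222).

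The Rpl37 probe set lies at the 7.38 percentile of all probe sets, where no detection call tells a dim gene from background. The 3 probe sets that Rpl37 shares with another symbol changed by 0.16 ± 0.11, 0.11 ± 0.20 and -0.09 ± 0.12 in wild-type liver, with none past the test. Rpl37 no longer passed without untreated animal 1 of the wild type (adjusted p = 0.0982) or animal 3 (0.0770). Nor did it pass without treated wild-type animal 1 (0.0631) or animal 3 (0.0610). Its change was 1.17 to 1.25 in these fits, where 1.21% to 3.44% of all probe sets were called. In the same comparison 5 of 16 endothelial and 5 of 14 stellate cell and fibroblast markers fell and none of either list rose, 3 of 10 neutrophil markers rose, 2 of 14 lymphocyte markers fell, 1 of 12 macrophage markers rose and 1 fell, and 1 of 6 erythroid markers rose, against 6.44% of all probe sets called. Their part in the result was not tested, and in whole liver fewer cells of a type and less RNA per cell cannot be told apart.

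The other members of known role stayed close to their untreated level in wild-type liver. Rps6, the target of S6 kinase, differed by -0.02 ± 0.13, Rps3, at the mRNA entry channel, by -0.02 ± 0.13 and Rplp0 by 0.02 ± 0.18. Rpl11 differed by 0.13 ± 0.16 and Rps19, mutated in Diamond-Blackfan anaemia, by 0.15 ± 0.16. The remaining ones of this group, Rplp2, Rps14, Rps26, Rpl13a, Rpl22 and Rpl41, lay between -0.06 and 0.12. None of the 11 passed the test.

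**Figure D2:**
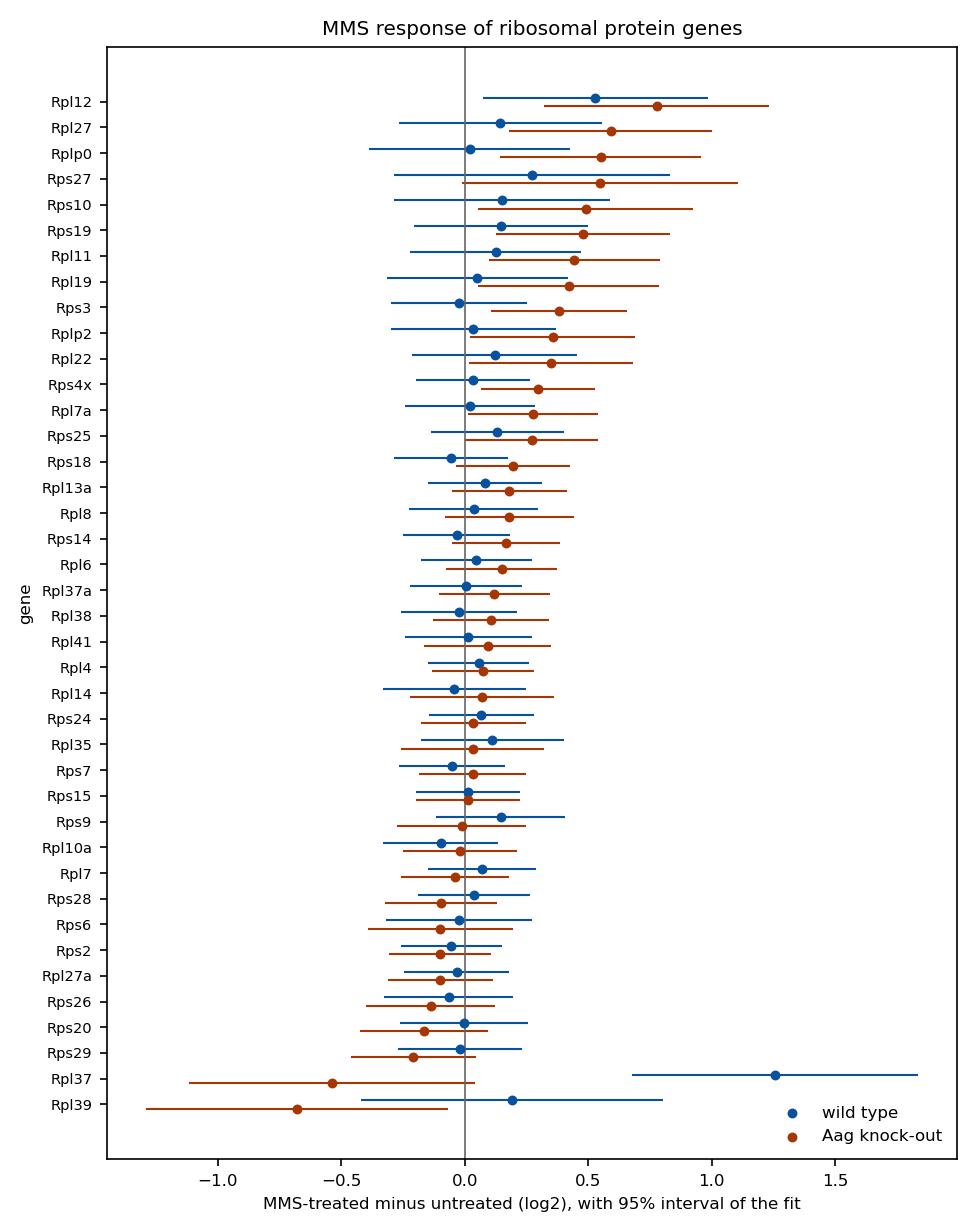
Log2 difference between MMS-treated and untreated animals (horizontal axis) for each of the 40 genes (vertical axis, ordered by the knock-out response), with bars for the 95% interval of the fit, in wild type (blue) and Aag knock-out (brown), n = 3 per group. Most blue points lie near 0, brown points reach from -0.68 for Rpl39 to 0.78 for Rpl12, and Rpl37 lies at 1.26 in wild type.

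In Aag knock-out liver no member passed the limma test after adjustment (0 of 40, against 1.51% of all probe sets called), and the smallest adjusted p was 0.0703, for Rpl12. At an unadjusted p under 0.05 there were 14 members (35%), 13 higher and 1 lower after MMS, against 24.8% of all probe sets. Treated and untreated animals did not overlap for 21 members (52.5%), 17 of them higher, against 26.7% of all probe sets. The median change was 0.11, against -0.06 over all probe sets, and 28 of 40 changes were above 0, against 43.7% of all. With each array centred on its median the members' median was 0.05 in the knock-out and 0.23 in wild type, so the order of the genotypes depends on the scaling.

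The 13 higher members differed by 0.27 to 0.78 and their adjusted p ranged, with that of Rpl39, from 0.0703 to 0.200. Rpl27, a large subunit protein, read 12.68, 12.51 and 12.78 in untreated knock-out animals and 13.38, 13.45 and 12.91 in treated ones, a difference of 0.59 ± 0.19 (adjusted p = 0.0960). Its wild-type animals read 12.73, 12.73 and 12.80 untreated and 12.58, 13.25 and 12.87 treated. Treated knock-out animals 1 and 2 and treated wild-type animal 2 were the high ones, and treated knock-out animal 3 lay nearest to the untreated knock-out animals.

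The same 3 animals were high for the stalk protein Rplp0. It read 12.25, 12.17 and 12.49 in untreated and 13.05, 13.04 and 12.49 in treated knock-out liver, a difference of 0.55 ± 0.18 (adjusted p = 0.109), and the groups overlapped through animal 3 of each. In wild type it read 12.53, 12.48 and 12.51 untreated and 12.24, 12.81 and 12.54 treated. Its partner Rplp2 read 13.24, 13.06 and 13.25 in untreated and 13.67, 13.63 and 13.32 in treated knock-out liver, a difference of 0.36 ± 0.15 (adjusted p = 0.177).

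Small subunit members showed this order too. Rps19 read 12.90, 12.70 and 12.93 in untreated and 13.47, 13.44 and 13.06 in treated knock-out animals, a difference of 0.48 ± 0.16 (adjusted p = 0.109), against 12.93, 12.93 and 12.97 and then 12.80, 13.34 and 13.13 in wild type. Rps3 read 12.95, 12.85 and 12.94 and then 13.35, 13.42 and 13.11 in the knock-out, a difference of 0.38 ± 0.13 (adjusted p = 0.104). Rps10, which is ubiquitinated on collided ribosomes, read 12.88, 12.64 and 12.82 and then 13.42, 13.51 and 12.88, a difference of 0.49 ± 0.20 (adjusted p = 0.161). In all of them treated animal 3 lay nearest to the untreated group. The X-linked Rps4x differed by 0.30 ± 0.10 (adjusted p = 0.121).

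Rpl11, the Mdm2 binder, read 13.08, 12.93 and 13.03 in untreated and 13.59, 13.64 and 13.14 in treated knock-out liver, a difference of 0.44 ± 0.16 (adjusted p = 0.121). Rpl22, which is known to repress its own paralog Rpl22l1, read 12.02, 11.93 and 12.15 and then 12.54, 12.35 and 12.26, a difference of 0.35 ± 0.15 (adjusted p = 0.183). Both had all treated knock-out animals above all untreated ones, and in both the 3 highest arrays were treated knock-out animals 1 and 2 and treated wild-type animal 2. The other probe set of Rpl22, at a mean of 10.9, differed by -0.05 in the knock-out (adjusted p = 0.857).

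A smaller group of members leaned the other way in the knock-out. Rps29, a zinc-binding small subunit protein, read 13.75, 13.83 and 13.74 in untreated and 13.46, 13.53 and 13.71 in treated animals, a difference of -0.21 ± 0.11 (adjusted p = 0.283), and the groups did not overlap. Rps20 read 13.69, 13.71 and 13.58 and then 13.46, 13.36 and 13.68, a difference of -0.16 ± 0.12 (adjusted p = 0.411), with animal 3 at the level of the untreated group. Rps26, which contacts mRNA upstream of the start codon, read 13.23, 13.16 and 13.28 and then 13.11, 12.87 and 13.26, a difference of -0.14 ± 0.12 (adjusted p = 0.488). Rps6 read 11.07, 11.01 and 11.08 and then 11.03, 10.69 and 11.14, a difference of -0.10 ± 0.13 (adjusted p = 0.670).

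Rpl39, a small protein of the exit tunnel, was the 1 member lower at an unadjusted p under 0.05. It read 5.45, 5.97 and 6.07 in untreated and 4.98, 5.31 and 5.16 in treated knock-out animals, a difference of -0.68 ± 0.28 (adjusted p = 0.163). It is one of the dim members, and the probe set it shares with another symbol, at a mean of 13.36, differed by -0.12 ± 0.15.

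The heat map of all 40 genes shows the arrays that carried these differences. On all 3 arrays with the high 5′ control signal, 16 members lay above every one of the other 9 arrays, against 7.30% of all probe sets: Rpl6, Rpl7a, Rpl8, Rpl11, Rpl13a, Rpl19, Rpl22, Rpl27, Rpl37a, Rpl41, Rplp0, Rplp2, Rps3, Rps10, Rps19 and Rps27. Rps20 and Rps29 lay below all 9 on all 3, against 5.68% of all probe sets. The highest of the 12 values fell on one of the 3 arrays for 28 of the 40 members, against 35.2% of all probe sets. These shares describe arrays picked by the control signal and not by the members.

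**Figure D3:**
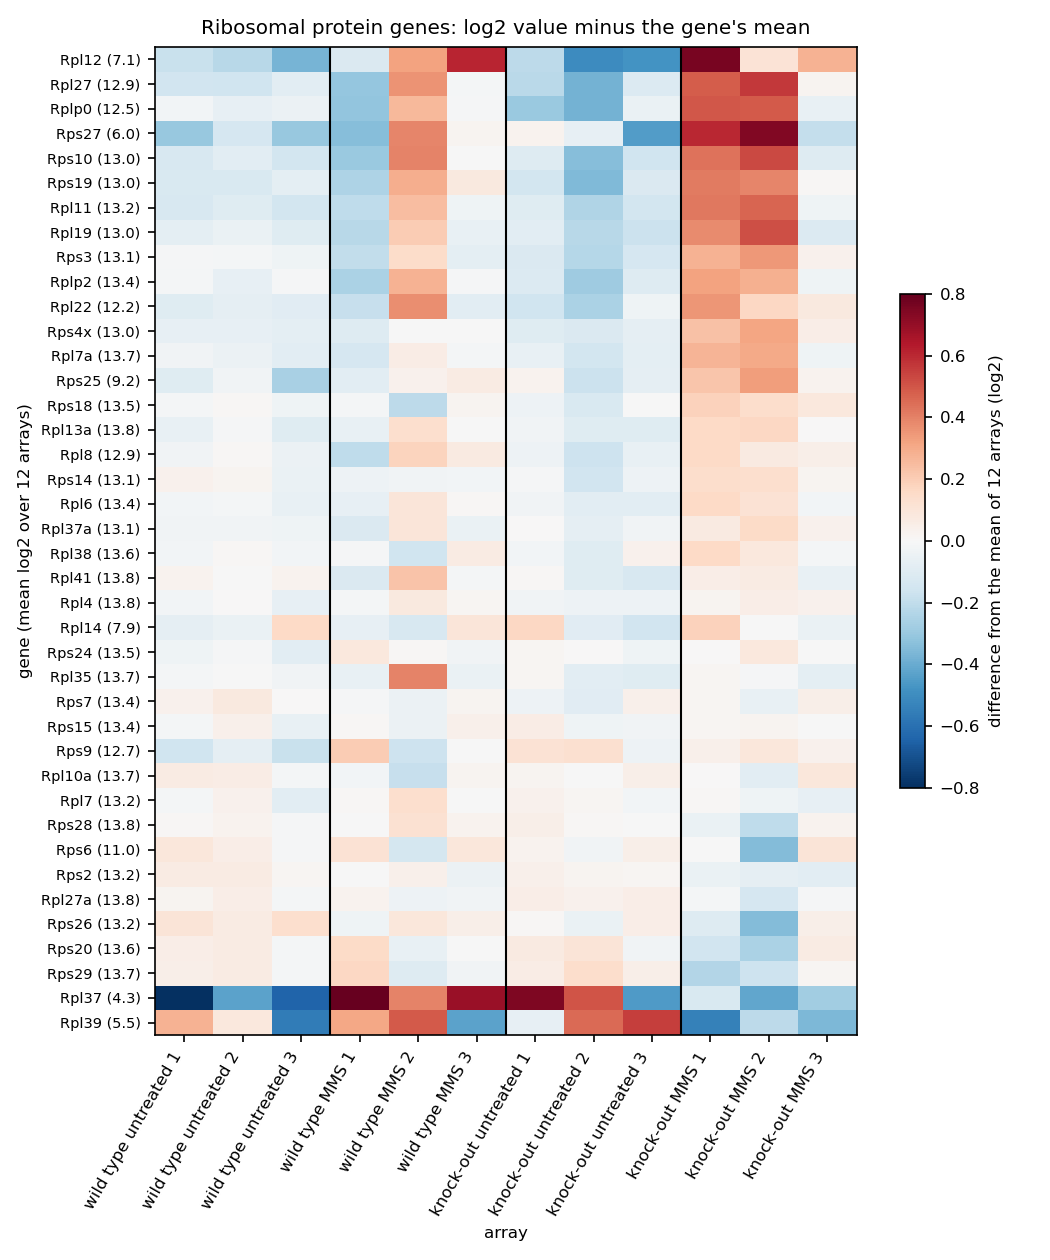
Log2 value of each of the 40 genes (rows, with the mean over 12 arrays in brackets) on each of the 12 arrays (columns), minus the mean of that gene; red is above and blue below, and colours saturate at 0.8. Treated knock-out arrays 1 and 2 and treated wild-type array 2 lie above the gene mean for the same 16 genes, in a red that is pale for some, such as Rpl41. Treated knock-out array 3 is near white for most of them.

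Array medians showed the same. The median of the members' differences from their own means was 0.15 and 0.09 in treated knock-out animals 1 and 2 and 0.00 in animal 3. It was 0.10 in treated wild-type animal 2, -0.06 and -0.00 in treated wild-type animals 1 and 3, and -0.09 to -0.01 in the 6 untreated animals. The same median over all probe sets did not follow it, at -0.07, -0.03 and 0.04 in the treated knock-out animals.

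**Figure D4:**
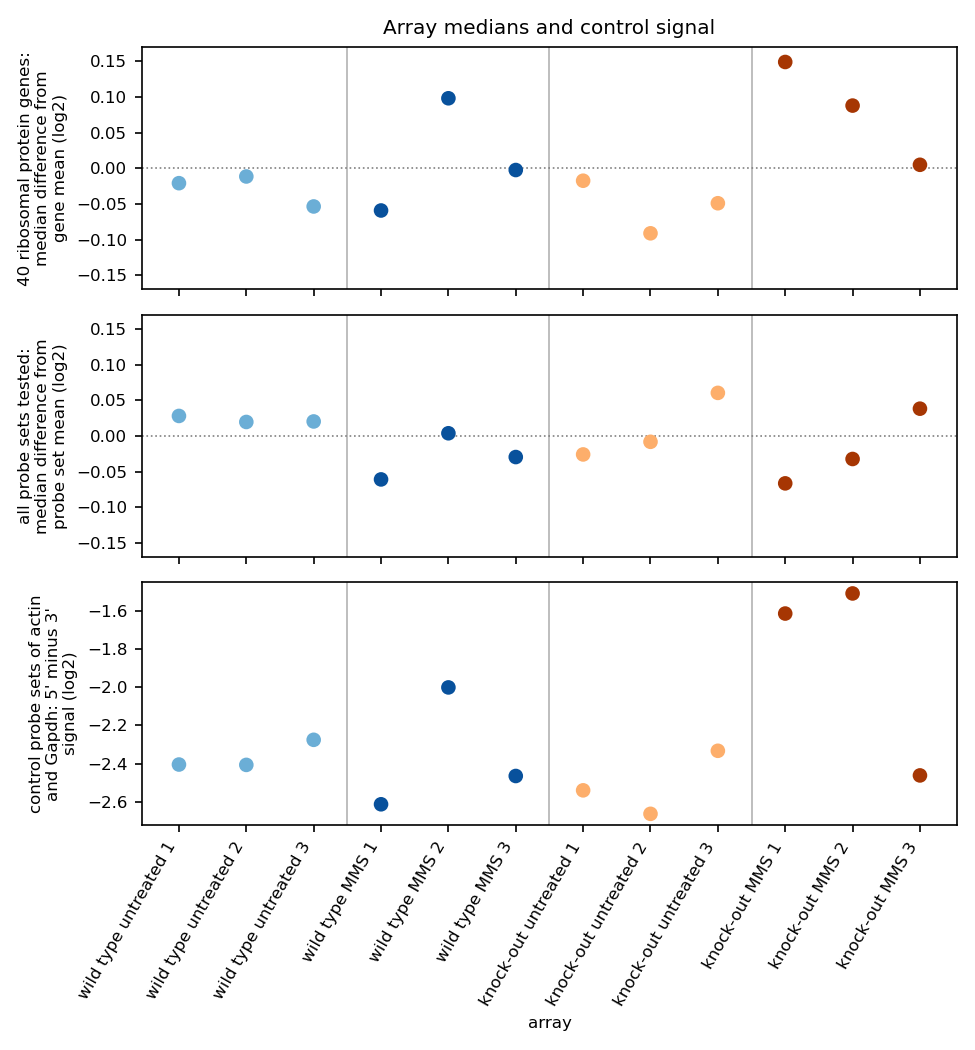
For each of the 12 arrays, the median difference from the gene mean over the 40 ribosomal protein genes (top, log2), the same over all probe sets tested (middle, log2) and the 5′ minus 3′ control signal, from actin and Gapdh (bottom, log2). The 3 arrays with the highest control signal, at -2.00, -1.61 and -1.51, are the 3 highest in the top panel, at 0.10, 0.15 and 0.09.

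With the 5′ minus 3′ signal as a covariate the median knock-out change of the members was 0.05, and 1 member had an unadjusted p under 0.05. In that fit 0 members passed the limma test, against 0% of all probe sets. Without treated knock-out animal 3, which has the low control signal, 11 members rose in the knock-out by 0.37 to 0.84 (adjusted p = 0.0223 to 0.0445), against 14.4% of all probe sets called. They were Rpl7a, Rpl11, Rpl12, Rpl19, Rpl27, Rplp0, Rps3, Rps4x, Rps10, Rps19 and Rps27. Without treated knock-out animal 1, or without animal 2, 0 members passed the limma test, against 0% of all probe sets in either fit. In each of the 2 fits 5 members had an unadjusted p under 0.05. With 3 animals a group, treatment and the control signal largely move together in the knock-out, and the part of the signal in the change was not tested beyond this covariate.

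Markers of other cell types moved in the same comparison. All 9 pancreatic acinar markers were higher in treated knock-out liver, with a median of 1.00 and none past the test, and their median over the list ran from -0.26 to 3.16 in the treated knock-out animals against -0.50 to 0.14 in the untreated ones. Of 7 bile duct markers 1 rose, against 1.51% of all probe sets. Their part in the change of the ribosomal protein genes was not tested.

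The members differed by the kind of probe set that read them. The identifier suffix x marks probe sets in which some probes can match other sequences, the suffix a marks probe sets that match several transcripts of one gene, and no suffix marks probe sets unique to a sequence. In the knock-out response the median change was 0.03 for the 15 members with an x, 0.28 for the 15 with an a and 0.31 for the 10 without suffix. The 14 members with an unadjusted p under 0.05 included 8 with an a, 6 without suffix and 0 with an x. Level went with this as well: the 11 members with means of 13.61 to 13.82 had a median change of 0.03, and the 23 with means of 11.04 to 13.49 one of 0.18. In wild type the 3 kinds of probe set had medians of 0.01, 0.04 and 0.09. Ribosomal protein genes have many processed pseudogenes, so readings with an x can hold signal of related sequences.

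By subunit, the median knock-out change was 0.14 over the 22 large subunit members and 0.03 over the 18 small subunit members. In wild type these medians were 0.05 and 0.00. No test of one subunit against the other was made.

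The further probe sets of the members mostly had the same sign. Of 48 probe sets not used, 41 had the sign of the one used in the knock-out response and 32 in the wild-type response. The size of the change depended on the probe set, also among bright ones. In the knock-out Rpl37a differed by 0.12 on the one used and 0.61 on another, at a mean of 12.6. For Rps9 these were -0.01 and 0.80 (mean 12.3), and for Rpl22 0.35 and -0.05 (mean 10.9). None of these 3 further readings passed the test. Past the test in the knock-out were 3 of the 48, against 1.51% of all probe sets. The 2 of Rpl41, at means of 7.69 and 7.87, rose by 0.88 and 0.91 (adjusted p = 0.0482 and 0.0434). The 1 of Rps24, at a mean of 5.33, fell by 1.27 (adjusted p = 0.0466). The brighter Rpl41 probe set read 13.83, 13.73 and 13.70 and then 13.88, 13.89 and 13.76, a difference of 0.09 ± 0.12. Averaged over the genotypes 3 of the 48 passed, against 11.3% of all probe sets. The same 2 of Rpl41 rose by 0.53 and 0.61 (adjusted p = 0.0273 and 0.0140). The third, 1 of Rps9 at a mean of 6.02, rose by 0.84 (adjusted p = 0.0166). The 102 probe sets that give several symbols, one of them a ribosomal protein, had medians of 0.02 in wild type and 0.09 in the knock-out.

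Averaged over the genotypes, Rpl12 was the 1 member past the test, against 11.3% of all probe sets, and 9 members, all higher, had an unadjusted p under 0.05 (22.5% of members, against 27.6% of all probe sets). The median change was 0.07, against -0.05 over all probe sets, and 30 of 40 were above 0, against 42.2% of all. Rpl12 belongs to the base of the stalk to which elongation factors bind. Its values were 6.90, 6.86 and 6.71 in untreated and 6.97, 7.40 and 7.69 in treated wild type, and 6.87, 6.58 and 6.60 in untreated and 7.84, 7.19 and 7.36 in treated knock-out liver.

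In both genotypes every treated animal of Rpl12 lay above every untreated one. It rose by 0.65 ± 0.15 over both (SE, 6 animals against 6, adjusted p = 0.0183), with 0.53 ± 0.21 in wild type (adjusted p = 0.154) and 0.78 ± 0.21 in the knock-out. With the 5′ minus 3′ signal as a covariate the change was 0.60 (adjusted p = 0.0806). The 2 brighter probe sets that Rpl12 shares with other symbols, at means of 12.44 and 13.41, changed by 0.23 ± 0.11 and 0.09 ± 0.07 and neither passed the test.

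Without MMS the genotypes gave near-equal readings of the family. None of the 40 members passed the limma test between untreated knock-out and wild type (0 against 0.0398% of all probe sets), and 1 member, Rpl37, had an unadjusted p under 0.05, against 7.16% of all. The median difference was -0.03, against -0.02 over all probe sets, and was 0.06 with centred arrays. Groups did not overlap for 4 members, against 18.3% of all probe sets. Rpl37 had the smallest adjusted p, 0.457, at a difference of 0.89 ± 0.26 in which untreated knock-out animal 3 lay within the wild-type range. Without that animal it was the 1 member past the test, against 0.0796% of all probe sets.

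Rps9 and Rpl39 came next. Rps9 read 12.55, 12.63 and 12.52 in untreated wild type and 12.82, 12.83 and 12.67 in untreated knock-out liver, a difference of 0.20 ± 0.12 (adjusted p = 0.783) with no overlap. Another bright probe set of Rps9, at a mean of 12.3, had the opposite sign, at -0.27 (adjusted p = 0.867). A dim one, at a mean of 6.02, differed by 0.16. Rpl39 differed by 0.38 ± 0.28 (adjusted p = 0.842). Of the members of known role the largest difference was that of Rplp0, at -0.20 ± 0.18, and Rps6 differed by -0.03 ± 0.13.

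In treated animals the genotypes differed by a median of 0.08 over the members, against 0.02 over all probe sets, and by -0.09 with centred arrays. No member passed the limma test (0 against 0.0177% of all probe sets), 2 members had an unadjusted p under 0.05, against 18.4%, and the groups of 5 members did not overlap, against 17.6%. The 3 with the smallest p were Rpl37, at -0.91 ± 0.26 (adjusted p = 0.144), Rps4x, at 0.24 ± 0.10 (adjusted p = 0.264), and Rps3, at 0.26 ± 0.13 (adjusted p = 0.293).

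The MMS responses of the genotypes themselves were not shown to differ for any member. The test of the difference called 0 members with limma (against 0% of all probe sets), and 3 had an unadjusted p under 0.05, against 17.7% of all. These were Rpl37, at -1.80 ± 0.37 (adjusted p = 0.103), Rps3, at 0.40 ± 0.18 (adjusted p = 0.268), and Rpl39, at -0.87 ± 0.39 (adjusted p = 0.279). Without untreated knock-out animal 3, Rpl37 was the 1 member past this test, against 0.698% of all probe sets. The median over the members was 0.11, against 0.05 over all probe sets, and -0.15 with centred arrays. The interval for Rps6 ran from -0.49 to 0.34 and that for Rplp0 from -0.05 to 1.10, so a 2-fold difference was outside the first and inside the second.

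Over the 12 arrays pairs of members ranged from closely parallel to opposed. Among the 34 bright members, 561 pairs had a median Pearson r of 0.19, from -0.97 to 0.99, and 110 pairs exceeded 0.8. The closest pair was Rpl27 and Rps19 (r = 0.99), followed by Rpl11 with Rpl19 and with Rps10 (both 0.98). The most opposed was Rps19 with Rps29 (r = -0.97), and Rplp2, Rpl27 and Rplp0 also opposed Rps29 (r = -0.96 each). These are descriptions over arrays that share their groups, normalization and the control signal, with no test.

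Of 9 measured ribosomal proteins that the naming rule leaves out, 1, Rpl22l1, fell past the test in wild type and over both genotypes. The shares of all probe sets called were 6.44% and 11.3%. In the knock-out 0 passed, against 1.51%. Rpl22l1, the paralog that can take the place of Rpl22, read 12.24, 12.19 and 12.17 in untreated and 11.80, 11.50 and 11.70 in treated wild type, and 11.98, 11.98 and 12.05 and then 11.73, 11.45 and 11.82 in the knock-out. All treated animals lay below all untreated ones of their genotype, and it fell by 0.44 on the log2 scale over both (SE 0.09, adjusted p = 0.0130). By genotype the change was -0.53 ± 0.13 in wild type (adjusted p = 0.0342) and -0.34 ± 0.13 in the knock-out (adjusted p = 0.137). The wild-type call was lost with centred arrays (0.161) and, at 0.0529 to 0.128, without any 1 of the untreated wild-type animals, treated wild-type animals 2 or 3, or untreated knock-out animals 1 or 2. In those fits with an array left out, 1.21% to 4.87% of all probe sets were called. Rpl22 itself differed by 0.24 ± 0.11 over both (adjusted p = 0.181). Its other probe set, at a mean of 10.9, had the opposite sign. That one differed by -0.17 over both (adjusted p = 0.295) and by -0.28 in wild type (adjusted p = 0.243). The direction of Rpl22 thus depends on the probe set.

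The other 8 measured genes outside the rule passed no test. Rps3a1, Fau and Rpsa, which are core small subunit proteins under other names, differed in the knock-out by 0.37 ± 0.14, 0.29 ± 0.13 and 0.18 ± 0.11. The 3 highest arrays for Rps3a1 and for Fau were the 3 with the high 5′ control signal (13.33, 13.46 and 13.53 for Fau). Rps4l, a relative of Rps4x, read 7.39, 6.84 and 8.02 in untreated and 9.56, 9.53 and 8.00 in treated knock-out animals, with animals 1 and 2 high. Its responses differed between genotypes by 2.21 ± 0.56 (adjusted p = 0.131).

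Beside the ribosomal proteins stand the factors that build and serve the ribosome. Over both genotypes 23 of 50 ribosome biogenesis factors rose and 0 fell, against 11.3% of all probe sets called, with a median of 0.43, among them the nucleolar GTPases Gnl3 (0.74 ± 0.13) and Gnl2 (0.79 ± 0.13), the rRNA methyltransferase-like Ftsj3 (0.96 ± 0.16) and Taf1d of the polymerase I initiation complex (0.79 ± 0.13). In wild type 7 rose (against 6.44% of all probe sets), with a median of 0.31, and in the knock-out 5 (against 1.51%), with a median of 0.57. With 1 array left out the wild-type count ran from 0 to 8, lowest without untreated wild-type animal 1 or 3, where 1.21% and 1.53% of all probe sets were called. The knock-out count ran from 0 to 19, highest without treated knock-out animal 3, where 14.4% of all were called. The averaged count was 31 with centred arrays (12.3% of all) and 8 with the control signal as a covariate (5.13% of all). It was 12 to 28 with 1 array left out, lowest without untreated wild-type animal 1 (5.45% of all) or untreated knock-out animal 1 (5.93%). The 40 ribosomal protein genes had a median of 0.07 in that comparison, and the difference between the lists was not tested.

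Of 20 elongation factors and other genes with TOP mRNAs 0 passed the limma test in any of these 3 comparisons, and their medians were 0.07 in wild type, 0.21 in the knock-out and 0.13 over both; without treated knock-out animal 3, 5 of them rose in the knock-out, against 14.4% of all probe sets. Among 25 initiation factors 3 rose and 1 fell over both, against 11.3% of all probe sets: Eif3d, a subunit of the eIF3 complex (0.93 ± 0.16), Eif2b1 of the exchange factor eIF2B (0.63 ± 0.15), Eif6, which keeps the subunits apart (0.38 ± 0.09), and Eif2s3x, the gamma subunit of eIF2 (-0.50 ± 0.12). Of 74 mitochondrial ribosomal proteins 2 rose over both, fewer than the 11.3% of all probe sets, Mrps18b by 0.55 ± 0.12 and Mrpl47 by 0.34 ± 0.10.

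**Figure D5:**
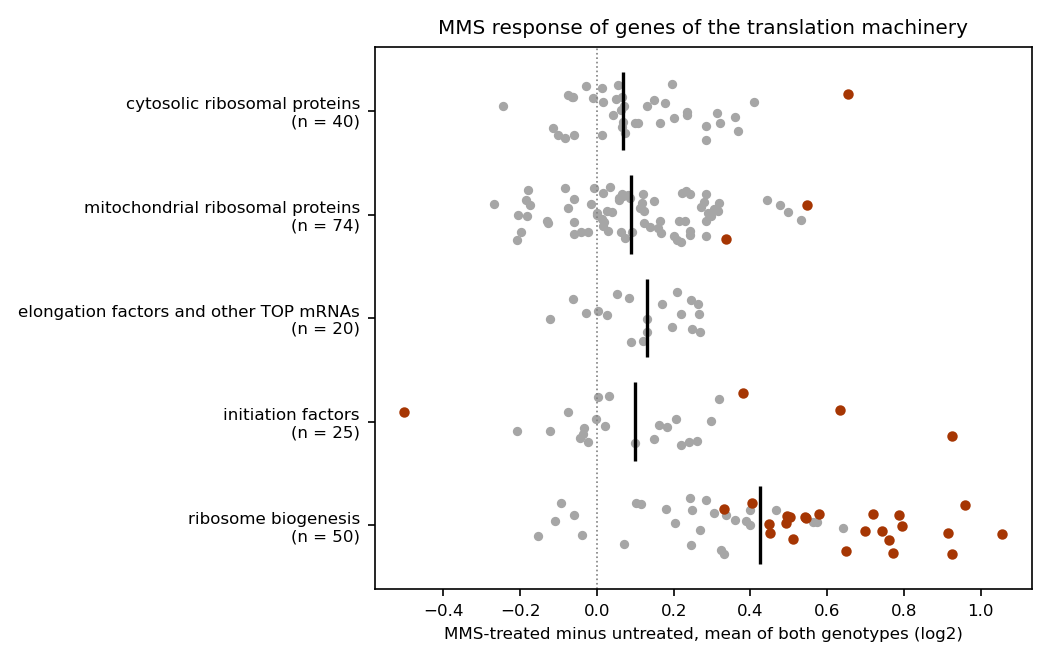
Log2 MMS response averaged over the genotypes (horizontal axis) for each gene of 5 lists (rows), 1 point per gene, brown where the adjusted p was under 0.05 and grey otherwise, with a black line at the median. The median is 0.07 for the 40 cytosolic ribosomal proteins and 0.43 for the 50 ribosome biogenesis factors.

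Further lists held TOR pathway genes with translation repressors, and genes around p53 and ribosomal stress. Of the 28 genes in the list of TOR pathway genes and translation repressors, which also holds Myc, 1 rose and 4 fell in wild type. The share of all probe sets called was 6.44%. Rictor, a subunit of TOR complex 2, rose by 0.59 ± 0.15, and among those that fell Sesn3, Ddit4l and Myc differed by -0.82 ± 0.19, -1.81 ± 0.44 and -1.60 ± 0.33. In the knock-out 0 of them passed the limma test, against 1.51%. Over both genotypes 0 rose and 3 fell, against 11.3%: Deptor, an inhibitor of TOR, by -0.29 ± 0.08, Ddit4l by -1.16 ± 0.31 and Myc by -1.03 ± 0.23. Of 12 genes around p53 and ribosomal stress 1 was called in each of these comparisons, against the same shares of all probe sets: the cell cycle inhibitor Cdkn1a fell in wild type (-1.95 ± 0.51, adjusted p = 0.0488), and Mdm2, which Rpl11 binds, rose in the knock-out (0.87 ± 0.18, adjusted p = 0.0453) and over both genotypes (0.64 ± 0.12, adjusted p = 0.0104).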

How the data were processed

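Liver RNA was extracted with Trizol and labelled with biotin, per the labels' protocols. The deposited values came from RMA, per the submitters' processing notes, a method that corrects background, normalizes arrays and summarises probes. Its version, and which arrays it normalized jointly, are not given in the sources. The values were read as deposited log2 expression. That base was inferred from their range and from what RMA usually returns. Such scaling hides a change shared by most genes, and no detection call came with the values.

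Of 22690 probe sets 64 controls were set aside and 22626 tested. Symbols came from the platform annotation (20380 probe sets with 1 symbol, 691 with several, 1555 with none) and were matched by gene identifier to a RefSeq table (GRCm38.p6) for 20351. The table held 0 extra sample columns.

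A model with 1 mean per group was fitted to the 12 arrays with limma 3.58.1 (R 4.3.3) with 8 residual degrees of freedom, and p-values were adjusted over all probe sets by Benjamini-Hochberg at 0.05; ± gives the fit's SE. The fit was tested on simulated data. By their titles the replicates are different animals.

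The members and the 15 gene lists were chosen with earlier results of these data known. Named were members past the threshold (or the 3 with the smallest p), fixed members of known role, the 3 highest, lowest, steadiest and most variable, those shown in start-site windows, and up to 4 called genes of each other list and comparison. Alternatives were filters, scalings, variance models, weighted arrays, a block for animal number, left-out arrays, other probe sets and the 5′ minus 3′ covariate.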

Additional observations from a re-analysis of the deposited data

How the results depend on the processing

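No called value of a member changed direction. Shares of all probe sets called stand in brackets. Members called in wild type were 0 with filters at a mean of 6 (11.5%) or 8 (14.6%) and 2 with array weights (21.5%). With probe sets without suffix, which 19 of the genes have, 0 were called (6.44%, from the main fit). Both filters and the choice without suffix leave out the Rpl37 probe set, which has an x and a mean of 4.32. Its call could therefore not recur there. In the knock-out the members called were 1 (7.16%) and 3 (15.99%) with those filters and 2 (4.55%) with a trended robust variance. The count was 14 (25.6%) with weighted arrays, 7 (14.7%) without knock-out arrays 3 of both treatments and 1 of 19 (1.51%) with probe sets without suffix. Of the 14 and of the 7, Rpl37 was lower and the other members were higher. Between untreated genotypes 1 was called with array weights (0.804%). Between treated genotypes 1 was called with array weights (6.55%) and 1 without the arrays numbered 3 (5.98%), and for the difference of responses 3 (10.4%) and 1 (2.27%). Averaged over the genotypes the members called were 2 (25.8%) with the filter at 8, which leaves out the Rpl12 probe set, at a mean of 7.08. The counts were 3 (12.3%) with centred arrays, 2 (13.3%) with the trended variance, 14 (33.0%) with weights and 6 (18.5%) without the arrays numbered 3. They were 0 (5.13%) with the 5′ minus 3′ covariate, 3 (13.4%) with all probe sets of a gene averaged and 3 of 19 (11.3%) with probe sets without suffix. With 1 array left out, the counts ran from 0 to 1 in wild type (1.21% to 7.95%) and 0 to 11 in the knock-out (11 without treated animal 3, 14.4%). They were 0 to 1 between untreated genotypes, 0 to 0 between treated ones (0.0133% to 4.94%) and 0 to 1 for the difference. For the average they ran from 1 to 8 (8 without treated knock-out animal 3, 19.0%, and 3 without treated wild-type animal 1, 13.6%). The 1s in the knock-out came without treated wild-type animal 1 (Rpl12, higher, 2.99%) or untreated knock-out animal 3 (Rpl37, lower, 3.59%). The latter fit also gave the 1s for the untreated genotypes (Rpl37, higher, 0.0796%) and the difference (Rpl37, lower, 0.698%). The knock-out counts of 0 without treated knock-out animal 1 or 2 stood against 0% of all probe sets. Median changes moved with centred arrays to 0.23 in wild type, 0.048 in the knock-out, 0.063 and -0.089 between untreated and treated genotypes, -0.15 for the difference and 0.13 for the average, where all probe sets moved from -0.05 to 0.14 in wild type and from -0.06 to -0.13 in the knock-out. They moved with the covariate to 0.047 in the knock-out, -0.00093 between treated genotypes and -0.0021 for the difference, and with probe sets without suffix (fewer genes) to 0.27, 0.17 and 0.25 for these and 0.20 for the average. Left-out arrays kept the medians between 0.00 and 0.07 in wild type, 0.09 and 0.15 in the knock-out, -0.05 and -0.01 and 0.05 and 0.12 between genotypes, 0.07 and 0.15 for the difference and 0.06 and 0.09 for the average. Beyond what the construction of an alternative gives, the cause was not tested. Of the calls over all probe sets in wild type, 30.9% were higher as deposited, 53.7% with quantile normalization and 72.8% with centring.

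With the animal number as a replicate block the counts were 1, 0, 0, 0, 0 and 1 in the order above. The shares of all probe sets called were 6.05%, 0.084%, 0.0265%, 0.0133%, 0% and 9.63%. Adjusted p in the block fit was 0.0308 for Rpl37 in wild type and 0.0355 for the averaged Rpl12. The numbers are shared between groups, but over 18 same-number pairs the deviations correlated at -0.475 to 0.403, with 7 above 0.1. Not every pair exceeded 0.1, so the numbers were not taken as pairs, although 8 of 12 arrays were closest to their own number, a hint from the data and not from the design. Over all probe sets the block moved the knock-out count from 341 to 19. The alternatives for the biogenesis factors, the elongation factors and other TOP mRNAs, and Rpl22l1 were chosen after seeing the data, and none were run for the other lists. With 3 arrays a group, dim members such as Rpl37 cannot be told from background.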
